A study of Mus musculus with 4 samples.

Results

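The secreted Wnt antagonists are proteins that cells release to keep Wnt ligands from their receptors. The genes described here are Sfrp1, Sfrp2, Sfrp4, Sfrp5, Frzb, Dkk2, Dkk3 and Wif1, and they were taken by gene name from the deposited table. All 8 were found among the 51912 genes of that table, each on 1 row. RNA was sequenced from subcutaneous white adipose tissue, which lies beneath the skin, of C57BL/6 mice aged 8 weeks. The vehicle group received DMSO, and the other group received BML-260, which is known to block the phosphatase DUSP22. Each group had 2 libraries, called A and B after their titles, while the series speaks of 8 mice, 4 per treatment. The labels do not tie mice to libraries, and every p-value therefore rests on the spread between libraries and not on that between mice. The tests estimate this spread partly from other genes.

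Wnt ligands bind Frizzled receptors and the coreceptors LRP5 and LRP6, which stabilises beta-catenin and turns on target genes. In fat, Wnt signalling through beta-catenin is known to hold back the differentiation of adipocyte precursors. Secreted frizzled-related proteins (Sfrp1, Sfrp2, Sfrp4, Sfrp5 and Frzb) carry a domain like the ligand-binding part of Frizzled, and WIF1 uses another domain to bind the ligands. The Dickkopf protein DKK2 acts instead on LRP5 and LRP6, and DKK3 is a divergent family member whose role in Wnt signalling is less settled. SFRP5 is also known as an adipokine, a protein that adipocytes secrete.

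Of the members, Sfrp2 had the highest level, Sfrp5 lay lower in both BML-260 libraries, and Dkk2 lay highest in 1 of them. The promoter stretches of these 3 members are shown because they were available and did not overlap the gene in the GENCODE annotation. Each is the 250 bases before the transcription start, read 5′ to 3′ on the gene's strand, from RefSeq on GRCm38.p6. Capitals mark matches to 4 motifs searched on both strands. The motifs were the TCF/LEF site (CTTTG and then any pair of A and T letters), the C/EBP site TTGCNNAA, the CRE core TGACG that CREB proteins bind, and the TATA box TATAAA.
Sfrp2, chr3:83766071-83766320, plus strand: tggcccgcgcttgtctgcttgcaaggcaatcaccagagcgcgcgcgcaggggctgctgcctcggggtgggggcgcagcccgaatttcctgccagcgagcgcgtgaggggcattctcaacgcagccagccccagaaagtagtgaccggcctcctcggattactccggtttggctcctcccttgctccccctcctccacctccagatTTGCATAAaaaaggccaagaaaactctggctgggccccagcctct
Sfrp5, chr19:42202253-42202502, minus strand: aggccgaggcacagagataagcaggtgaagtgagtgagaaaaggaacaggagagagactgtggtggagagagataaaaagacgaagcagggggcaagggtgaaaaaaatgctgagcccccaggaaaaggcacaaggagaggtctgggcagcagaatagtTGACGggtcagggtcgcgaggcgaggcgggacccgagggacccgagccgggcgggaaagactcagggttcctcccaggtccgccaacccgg
Dkk2, chr3:132085042-132085291, plus strand: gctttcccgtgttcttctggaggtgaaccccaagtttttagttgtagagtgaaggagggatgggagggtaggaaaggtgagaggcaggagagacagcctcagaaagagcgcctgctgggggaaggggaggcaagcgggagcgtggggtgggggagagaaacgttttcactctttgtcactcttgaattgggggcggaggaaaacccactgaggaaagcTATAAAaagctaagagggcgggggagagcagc

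No match overlapped another in these stretches. The Sfrp2 stretch held 1 C/EBP match, 45 to 38 bases before the start, and 9.56% of all 32851 promoter stretches of this length held one. The Sfrp5 stretch held 1 CRE core, 91 to 87 bases before the start, against 17.8% of all. The Dkk2 stretch held a TATA box at 32 to 27 bases before the start, against 12.4% of all. None of the 3 held the TCF/LEF letters, which 14.8% of all held. The table gave promoters for 5 of the 8 members. Those of Frzb and Wif1 overlap the GENCODE gene and are not printed, and Sfrp1, Sfrp4 and Dkk3 were not among them.

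Total reads per library lay between 19999836 and 23726781. Of all genes, 15643 had enough reads to be tested, and 7 of the members were among them, each above the cutoff of the filter in all 4 libraries. Ucp1, the heat-producing carrier of thermogenic adipocytes, was alone in passing edgeR's quasi-likelihood test at an adjusted p of 0.05, with 1 gene higher (0.00639% of tested genes) and 0 lower (0%). No member was called, while 1729 of the 15643 genes (11.1%) had an unadjusted p under 0.05. None of the members was among the 405 genes (2.69% of those with an adjusted p) that DESeq2 called. The libraries also differed in the levels of cell type markers. Skeletal muscle markers (10 of 10 tested) summed to 350.9 and 10118 CPM (counts scaled to library size) in the vehicle libraries and to 28321 and 44067 with BML-260. B cell markers (3 of 5 tested) summed to 142.2 CPM in BML-260 A and to at most 2.60 CPM in the others. The part of either in the values of the members was not tested.

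**Figure D1:**
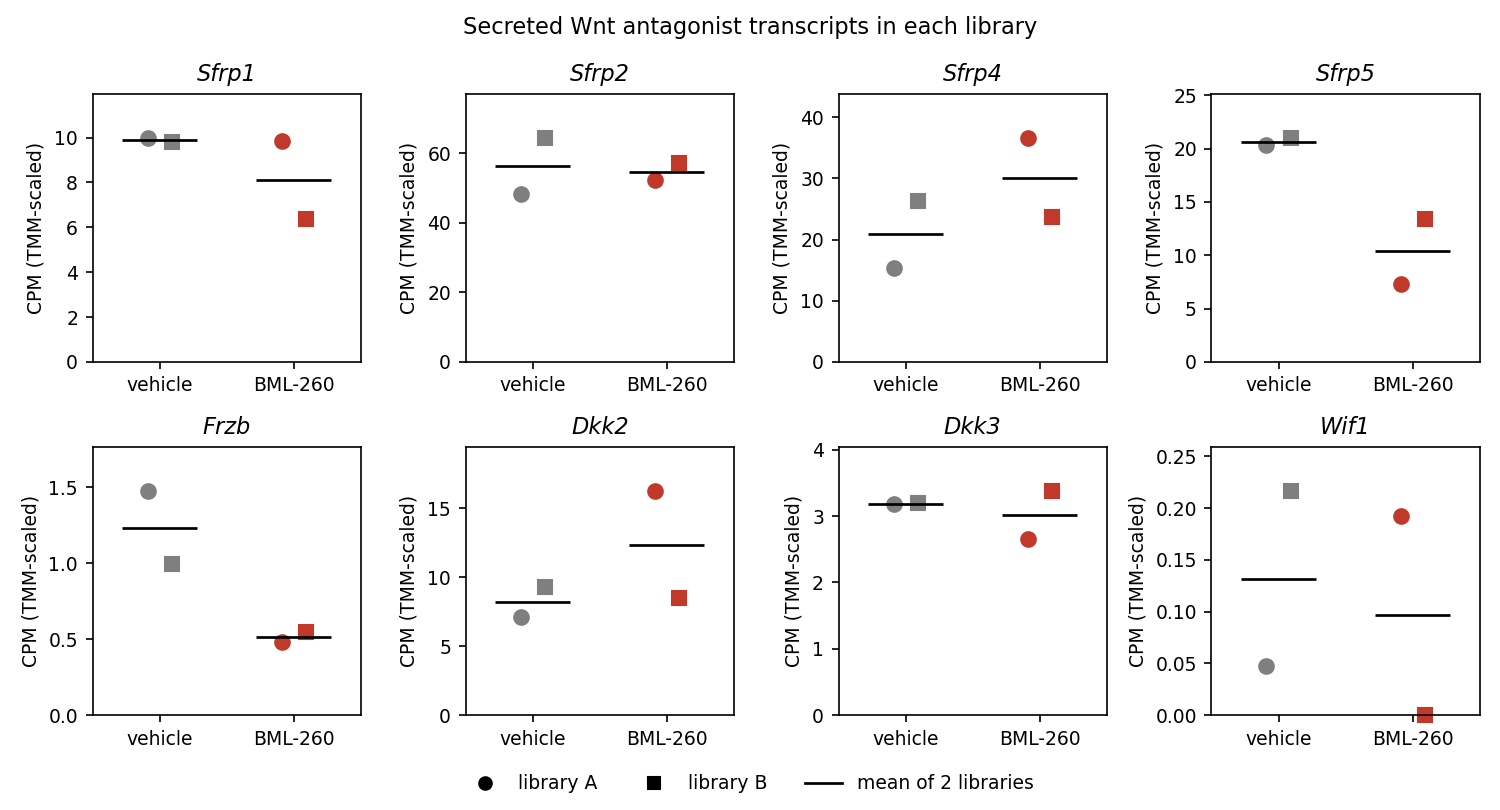
Level of each of the 8 genes in each library, as TMM-scaled CPM (y axis, starting at 0 and scaled separately in each panel), by treatment (x axis). Points are single libraries and bars are the means of 2 libraries. Both BML-260 libraries lie below both vehicle libraries for Sfrp5 and Frzb, and the groups overlap for the other 6 genes.

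Levels of different genes are compared here per length, on the authors' FPKM scale (fragments scaled to gene length and library size). Sfrp2 was the most abundant member, with 29.0 and 39.3 FPKM in the vehicle libraries A and B and 30.8 and 32.8 FPKM in the BML-260 libraries. Sfrp4 followed with a mean over the 4 libraries of 16.8 FPKM, and Sfrp5 with 9.71 FPKM. Below them lay Dkk2 (mean 3.01 FPKM), Sfrp1 (2.21 FPKM), Dkk3 (1.01 FPKM), Frzb (0.427 FPKM) and Wif1 (0.081 FPKM). In vehicle, Sfrp4 (10.4 and 17.0 FPKM) and Sfrp5 (13.0 and 13.1 FPKM) could not be ordered beyond their spread, and neither could Dkk2 (2.13 and 2.72 FPKM) and Sfrp1 (2.49 and 2.40 FPKM). With BML-260, Sfrp4 lay above Sfrp5 in both libraries. Sfrp2, Sfrp4 and Sfrp5 together made up 87.3% to 91.4% of the summed FPKM of the 8 members in each library.

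The summed FPKM of the 8 members was 67.3 ± 12.3 (SD, n = 2) with vehicle and 65.1 ± 6.07 (SD, n = 2) with BML-260. The groups overlapped, with 58.7 and 76.0 FPKM against 69.4 and 60.8 FPKM. The shares of Sfrp2, Sfrp4 and Sfrp5 in this sum also varied within groups. Their SDs were 1.55, 3.29 and 3.53 percentage points with vehicle and 6.71, 8.72 and 4.88 with BML-260 (n = 2 each). The share of Sfrp5 was 22.2% and 17.2% with vehicle against 6.58% and 13.5% with BML-260, so both BML-260 shares lay below both vehicle shares. The share of Sfrp4 was 17.7% and 22.3% with vehicle and 36.3% and 23.98% with BML-260, higher in both BML-260 libraries. Dkk2 also held a higher share without overlap, at 3.63% and 3.57% with vehicle against 6.87% and 4.00% with BML-260. Shares within a library are tied, since a lower one raises the others. By CPM, which is another measure than these shares, 22.9% of all tested genes were higher and 21.5% lower without overlap. On the CPM scale the groups overlapped for Sfrp4 and Dkk2. Sfrp2 held 49.5% and 51.7% with vehicle and 44.4% and 53.9% with BML-260, with the groups overlapping. The FPKM ratio of Sfrp4 to Sfrp5 was 0.798 and 1.301 with vehicle, and it was 5.52 for BML-260 A but 1.78 for BML-260 B. These shares were not tested, since an exact permutation test of 2 libraries against 2 cannot give a two-sided p below 0.33.

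**Figure D2:**
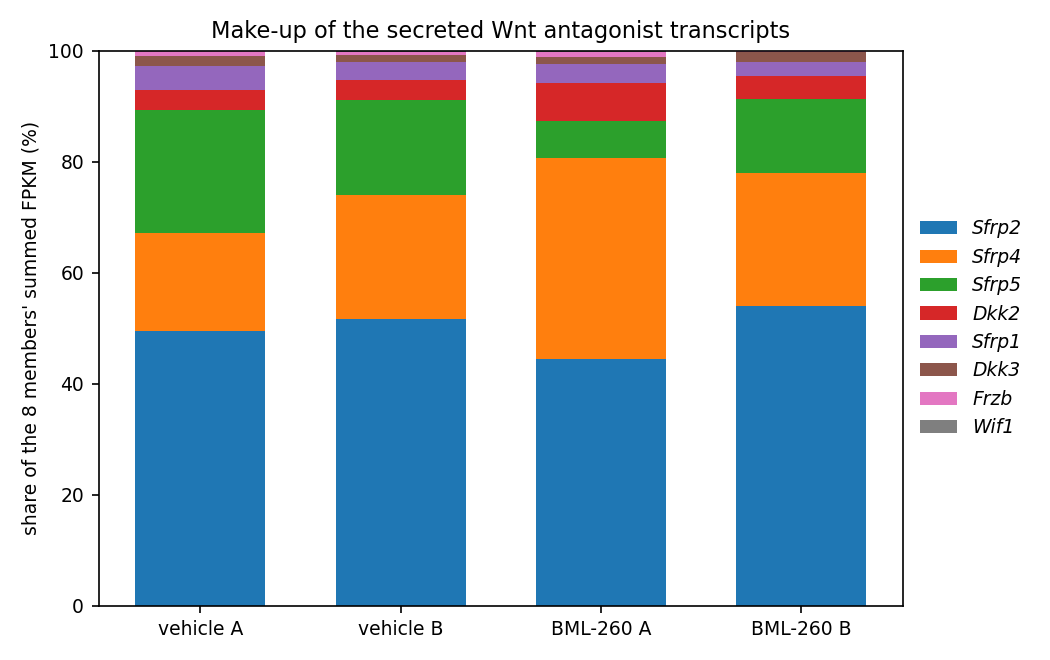
Share of each gene in the summed FPKM of the 8 genes (y axis, percent), one stacked bar per library. Sfrp2 takes 44.4% to 53.9% of every bar, and the Sfrp5 segment is smallest in BML-260 A at 6.58%.

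Sfrp5 (ENSMUSG00000018822, GRCm38 chromosome 19, 42197971 to 42202252, minus strand, protein coding) is the adipokine whose promoter stretch with the CRE core is shown above. Its level was 20.3 and 20.96 CPM in the vehicle libraries A and B and 7.27 and 13.4 CPM in the BML-260 libraries A and B. The vehicle libraries were nearly equal, and both BML-260 libraries lay lower, with BML-260 A the lowest. The group means were 20.6 ± 0.458 CPM and 10.4 ± 4.36 CPM (SD, n = 2 each), a level 1.99-fold lower with BML-260. The log2 fold change was -0.99 (SE 0.30, 95% confidence interval -1.76 to -0.22, edgeR adjusted p = 0.385). Its unadjusted p was the smallest of the members and ranked 834 among all tested genes, so it did not pass. DESeq2 gave an adjusted p of 0.126, and the authors' deposited table lists a log2 fold change of -0.785 with an adjusted p of 0.124. Without a filter on low counts the edgeR adjusted p was 0.0411, the only alternative tried in which Sfrp5 passed. Leaving out BML-260 A gave -0.63, and leaving out BML-260 B gave -1.51.

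Mature adipocyte markers also lay lower in BML-260 A, which was the lowest library for 10 of the 10 genes of that list. All 10 had log2 fold changes below zero, with a median of -0.37. The list summed to 56010 and 55515 CPM with vehicle, 34328 CPM in BML-260 A and 49335 CPM in BML-260 B. Adipoq, the adiponectin gene, stood at 3022 and 2744 CPM with vehicle, against 1662 and 2193 CPM with BML-260. Relative to the mean log2 level of the 10 adipocyte markers, Sfrp5 stood at -7.25 and -7.15 with vehicle, against -8.05 and -7.65 with BML-260. This ratio was thus lower in both BML-260 libraries, by a mean of -0.64 on the log2 scale, against -0.41 for the adipocyte list itself. On this relative scale 2 members were lower without overlap (Sfrp5 and Frzb) and 2 higher (Dkk2 and Dkk3), beside 2.88% lower and 58.8% higher over all tested genes. In bulk tissue, fewer cells of a type and less RNA per cell cannot be told apart. Smooth muscle genes lay lower as well. Tagln, a smooth muscle cytoskeletal gene, stood at 83.5, 82.2, 30.7 and 52.3 CPM in the order vehicle A, vehicle B, BML-260 A and BML-260 B. Of the 6 mural and smooth muscle markers, 4 lay lower without overlap, Rgs5 overlapped, and Des, which skeletal muscle also expresses, lay higher. The part of these marker differences in the Sfrp5 result was not tested.

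**Figure D3:**
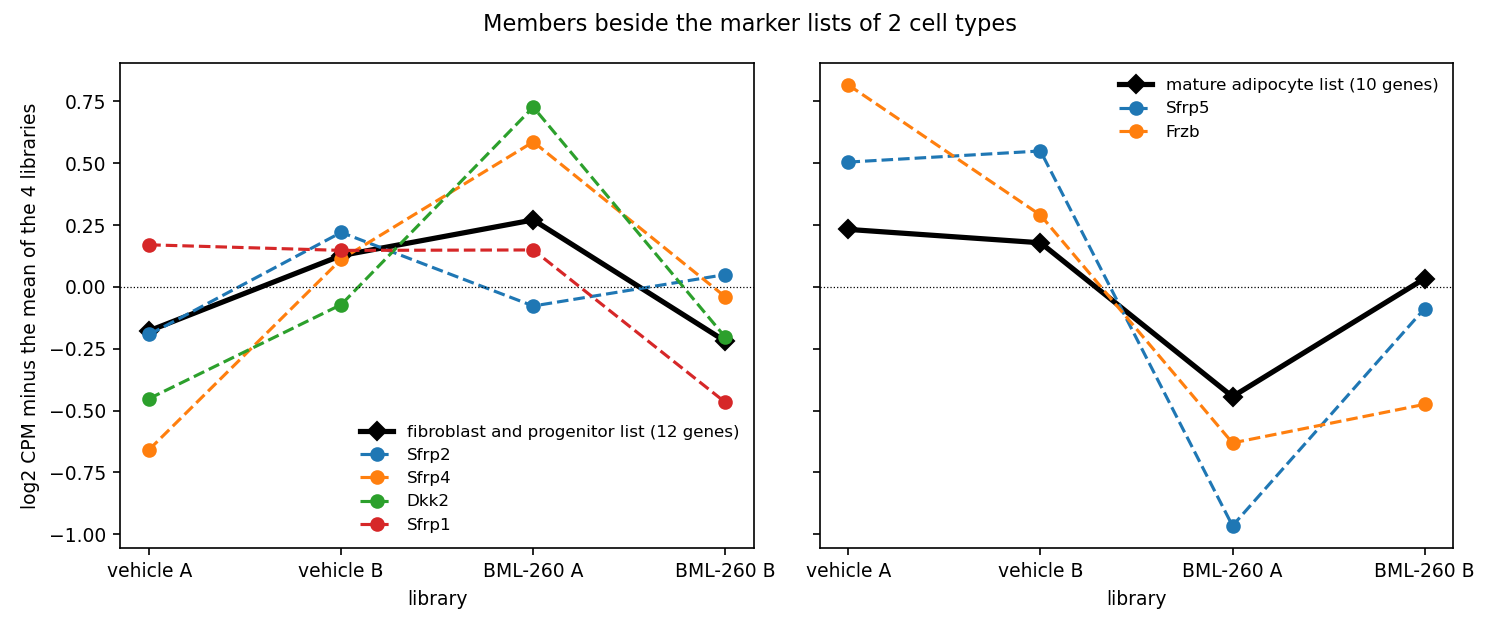
Log2 CPM minus the mean of the 4 libraries (y axis) in each library (x axis), for members (dashed) beside the mean of a marker list (solid black): fibroblasts and progenitors on the left, mature adipocytes on the right. Lines only join the values of 1 gene or list. The adipocyte list and Sfrp5 are lowest in BML-260 A, where Sfrp4, Dkk2 and the fibroblast list are highest.

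Frzb (ENSMUSG00000027004, chromosome 2, 80411970 to 80447625, minus strand), which encodes the Wnt-binding protein also called SFRP3, rested on few reads. It had 31 and 23 reads in the vehicle libraries and 10 and 12 reads in the BML-260 libraries, or 1.47, 0.994, 0.482 and 0.547 CPM. Both BML-260 libraries lay below both vehicle libraries. Exact 95% Poisson intervals were 21.06 to 44 reads for vehicle A and 14.6 to 34.5 reads for vehicle B. They were 4.80 to 18.4 reads for BML-260 A and 6.20 to 20.96 reads for BML-260 B. The interval of vehicle B overlapped both of BML-260, and that of vehicle A overlapped neither. These intervals cover counting error only. The level was 2.38-fold lower with BML-260 (log2 fold change -1.25, SE 0.46, 95% confidence interval -2.40 to -0.09, edgeR adjusted p = 0.432). DESeq2 gave an adjusted p of 0.695. Leaving out single libraries gave -1.51 to -0.97.

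The deposited FPKM of Frzb did not follow its reads. FPKM values were 0.523 and 0.348 with vehicle, 0.646 for BML-260 A and 0.191 for BML-260 B, and the library with the fewest reads had the highest FPKM. The length implied by reads, FPKM and library total was 2904, 2870 and 2648 bases in the other libraries, in the order vehicle A, vehicle B and BML-260 B, and 774 bases in BML-260 A. A spread above 3-fold in implied length was found in 1.26% of 15181 tested genes with at least 5 reads in every library, and the median spread was 1.11-fold. Sfrp1, Sfrp2, Sfrp4, Sfrp5, Dkk2 and Dkk3 stayed between 1.036-fold and 1.101-fold. On the FPKM scale the groups of Frzb overlapped, and their means, 0.436 with vehicle and 0.419 with BML-260, differed by less than their spread.

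Of the 7 members tested, Sfrp5 and Frzb were the 2 whose groups did not overlap and the 2 with an unadjusted p under 0.05, all lower. Over all tested genes, 21.5% were lower without overlap and 3.61% were lower at an unadjusted p under 0.05. The members' median log2 fold change was -0.08, with 2 above and 5 below zero, beside a median of 0.02 over all tested genes, of which 52.5% lay above zero.

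Sfrp4 (ENSMUSG00000021319, chromosome 13, 19623104 to 19632994, plus strand) encodes a frizzled-related protein that adipose tissue is known to release. It stood at 15.4 and 26.3 CPM with vehicle, against 36.5 and 23.6 CPM with BML-260. BML-260 A was the highest and vehicle A the lowest, and the groups overlapped. The log2 fold change was 0.53 (SE 0.33, 95% confidence interval -0.30 to 1.36, edgeR adjusted p = 0.592). The vehicle libraries differed from each other by 0.77 on the log2 scale, more than the groups did. Without vehicle A the fold change was 0.17, and without vehicle B it was 0.97. Leaving out BML-260 A gave 0.17, and leaving out BML-260 B gave 0.81.

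Dkk2 (ENSMUSG00000028031, chromosome 3, 132085292 to 132180304, plus strand), the LRP5 and LRP6 antagonist with the TATA box shown above, had a similar order of libraries. Its level was 7.12 and 9.29 CPM with vehicle, 16.2 CPM in BML-260 A and 8.47 CPM in BML-260 B. BML-260 A stood above the rest, and BML-260 B lay between the vehicle libraries. The log2 fold change was 0.59 (SE 0.36, 95% confidence interval -0.31 to 1.49, edgeR adjusted p = 0.586). Leaving out BML-260 A gave 0.03, leaving out BML-260 B gave 0.98, and leaving out vehicle A or B gave 0.38 or 0.79. Dkk2 passed in none of these fits.

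The summed level of the fibroblast and adipocyte progenitor markers (12 of 12 tested) was also highest in BML-260 A, with 7455 and 9567 CPM for vehicle and 10591 and 8575 CPM for BML-260. Single markers were mixed: 7 of the 12 were highest in BML-260 A. Sfrp4 and Dkk2 followed the same order of libraries as the sum, but not that of the mean log2 level of the list, which was lowest in BML-260 B. Fbn1, a matrix fibre gene, stood at 203.9, 349.6, 498.9 and 256.0 CPM in the order vehicle A, vehicle B, BML-260 A and BML-260 B. Pdgfra, a receptor gene that marks the progenitors, was at 88.8, 88.5, 96.0 and 76.3 CPM. Dcn, the decorin gene, went the other way with 851.5, 800.3, 733.9 and 598.1 CPM, and so did Ly6a, which encodes the progenitor surface protein SCA-1, with 329.3, 361.8, 325.9 and 268.2 CPM; these 2 of the 12 lay lower with BML-260 without overlap. Relative to the mean log2 level of the list, Sfrp4 stood at -4.17 and -3.70 with vehicle, against -3.37 and -3.51 with BML-260, and Dkk2 stood at -5.27 and -5.19 against -4.54 and -4.98. These ratios did not overlap between groups, with mean differences of 0.50 for Sfrp4 and 0.47 for Dkk2. The edgeR log2 fold changes of 0.53 and 0.59 come from a fit to counts and are another measure. On the scale of the ratios, the list mean itself differed by 0.05. Sfrp1, Sfrp5 and Frzb were lower without overlap on the same scale, with mean differences of -0.37, -1.10 and -1.16. That makes 2 members higher and 3 lower of 7, beside 14.3% higher and 8.28% lower over all tested genes. The part of fibroblast content in these results was not tested.

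Sfrp2 (ENSMUSG00000027996, chromosome 3, 83766321 to 83774316, plus strand), a secreted product of fibroblasts, stood at 48.3 and 64.4 CPM with vehicle, against 52.3 and 57.2 CPM with BML-260. Both BML-260 values lay between the vehicle values. The log2 fold change was -0.04 (SE 0.17, 95% confidence interval -0.47 to 0.39, edgeR adjusted p = 0.948). With this interval, the data leave room for a level between 0.720 and 1.31 times that of vehicle.

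Sfrp1 (ENSMUSG00000031548, chromosome 8, 23411502 to 23449632, plus strand), a frizzled-related protein gene that progenitors and adipocytes are known to express, was at 9.97 and 9.81 CPM with vehicle, against 9.82 and 6.38 CPM with BML-260. BML-260 B was the low library, and the other 3 were nearly equal. The log2 fold change was -0.29 (SE 0.26, 95% confidence interval -0.96 to 0.38, edgeR adjusted p = 0.716). Leaving out BML-260 A gave -0.65, and leaving out BML-260 B gave -0.01.

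Dkk3 (ENSMUSG00000030772, chromosome 7, 112116017 to 112159057, minus strand), the divergent Dickkopf gene, varied least in vehicle, with 3.18 and 3.20 CPM. The BML-260 libraries had 2.65 and 3.37 CPM, on either side of them. Its log2 fold change was -0.08 (SE 0.29, 95% confidence interval -0.82 to 0.65, edgeR adjusted p = 0.935).

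Wif1 (ENSMUSG00000020218, chromosome 10, 121033960 to 121100650, plus strand), the Wnt inhibitory factor gene, had 1 and 5 reads with vehicle and 4 and 0 reads with BML-260. It was too low to be tested. For the library with 0 reads, a floor of 3 reads allows a level of up to 0.137 CPM. How large a difference between groups could have been seen at this depth was not computed.

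**Figure D4:**
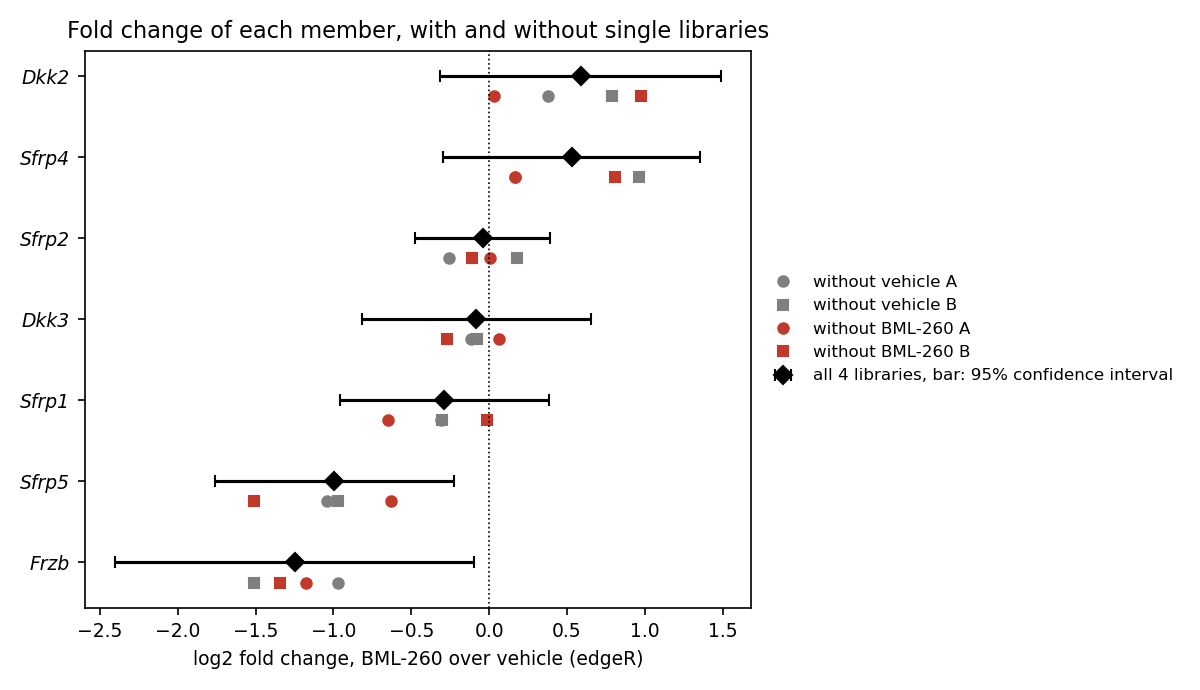
Log2 fold change of BML-260 over vehicle for the 7 tested genes (x axis): black diamonds with 95% confidence intervals use all 4 libraries, and smaller points leave out 1 library each. The intervals of Sfrp5 and Frzb lie below zero, and the points of Dkk2 run from 0.03 without BML-260 A to 0.98 without BML-260 B.

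Among the other secreted antagonist genes looked up, Dkk1 and Dkk4 had 0 reads in every library. Sost, Notum, Cer1 and Dkkl1 had at most 4 reads in any library and were not tested. Sostdc1, which encodes an inhibitor of BMP and Wnt ligands, was at 3.13 and 1.73 CPM with vehicle, against 0.867 and 2.004 CPM with BML-260, with the groups overlapping. Draxin, a secreted guidance protein gene, had 8 and 11 reads with vehicle and 31 and 12 with BML-260, highest in BML-260 A.

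The rest of the Wnt pathway is given by role, from the pathway lists, and no gene of these lists passed the edgeR test over all genes (0 higher and 0 lower). Of 19 Wnt ligand genes, 9 were tested, and an unadjusted p under 0.05 was found for 1 higher and 0 lower genes, against 7.45% higher and 3.61% lower over all tested genes. Their median log2 fold change was 0.09. Wnt4 had 0.0949 and 1.21 CPM with vehicle and 3.95 and 3.55 CPM with BML-260 (log2 fold change 2.49, SE 0.89, edgeR adjusted p = 0.428). The vehicle libraries of Wnt4 were far apart, and the skeletal muscle markers were also lower in vehicle A than in vehicle B. Within BML-260 the order differed, with Wnt4 higher in library A and the summed muscle markers higher in library B. The part of muscle in the Wnt4 value was not tested. Log2 fold changes were within their errors for Wnt6, at -0.31 (SE 0.36), and Wnt9a, at 0.23 (SE 0.29).

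Of 18 receptor and coreceptor genes, 17 were tested, with a median of -0.15 and 5 above and 12 below zero. At an unadjusted p under 0.05, 1 was higher and 1 lower. Lrp5, which encodes a coreceptor on which DKK2 acts, stood at 81.0 and 85.4 CPM with vehicle, against 60.0 and 62.2 CPM with BML-260. Both groups were tight and did not overlap (log2 fold change -0.44, SE 0.11, edgeR adjusted p = 0.330, DESeq2 adjusted p = 0.0932). The related coreceptor gene Lrp6 was outside the naming rule and was added after its values were seen; its log2 fold change was 0.03 (SE 0.13). Fzd9 had 0.190, 0.951, 2.79 and 2.69 CPM in the order vehicle A, vehicle B, BML-260 A and BML-260 B, again with a gap within vehicle. Fzd7 had a log2 fold change of 0.37 (SE 0.16).

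R-spondin genes, their receptors and the ligases they block (5 of 9 tested) had a median of 0.01, with 3 above and 2 below zero and 0 at an unadjusted p under 0.05. On the log2 scale Rspo2 differed by -0.73 (SE 0.67), Rspo1 by -0.42 (SE 0.43) and Znrf3 by 0.18 (SE 0.21). Genes of Wnt secretion and intracellular signalling (20 of 20 tested) had a median of 0.01, with 10 above and 10 below zero and 0 at an unadjusted p under 0.05. Tcf7, a nuclear partner of beta-catenin that T cells express strongly, had 25.4 CPM in BML-260 A and at most 1.90 CPM in the other libraries. Its log2 fold change was 3.34 (SE 1.47). T and NK cell markers (6 of 6 tested) summed to 55.7 CPM in BML-260 A and to at most 12.7 CPM in the others, and their part in this value was not tested. Gsk3b, a kinase that marks beta-catenin for degradation, had 0.29 (SE 0.15) and Ctnnbip1, a beta-catenin inhibitor gene, had -0.27 (SE 0.14).

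Of 15 feedback and target genes of beta-catenin, 13 were tested, with a median of 0.04, and an unadjusted p under 0.05 was found for 3 higher and 3 lower genes. By DESeq2, 3 passed as higher and 0 as lower, against 2.17% higher and 0.519% lower over all genes. The 3 were Ccnd1, Tnfrsf19 and Cd44. Ccnd1, the cyclin D1 gene, stood at 24.9 and 24.3 CPM with vehicle, against 50.5 and 37.0 CPM with BML-260 (log2 fold change 0.83, SE 0.18, edgeR adjusted p = 0.309, DESeq2 adjusted p = 0.0219). Tnfrsf19, a receptor of the tumour necrosis factor family, had 0.854, 0.605, 2.22 and 4.74 CPM in the same order of libraries, a log2 fold change of 2.25 (SE 0.51). Cd44, which encodes a hyaluronan receptor also found on leukocytes, had 10.5 and 14.6 CPM with vehicle, 62.8 CPM in BML-260 A and 21.6 CPM in BML-260 B. These 3 genes lay higher in both BML-260 libraries. The lower genes were chosen after their values were seen: Apcdd1, a membrane inhibitor of Wnt signalling, at -0.76 (SE 0.24), Twist1 at -0.40 (SE 0.14) and the feedback inhibitor gene Nkd1 at -0.68 (SE 0.26). Axin2, the most widely used readout of beta-catenin activity and also outside the rule, was at 15.6 and 15.8 CPM with vehicle, against 11.9 and 16.5 CPM with BML-260. Its log2 fold change was -0.14 (SE 0.20), with the groups overlapping.

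**Figure D5:**
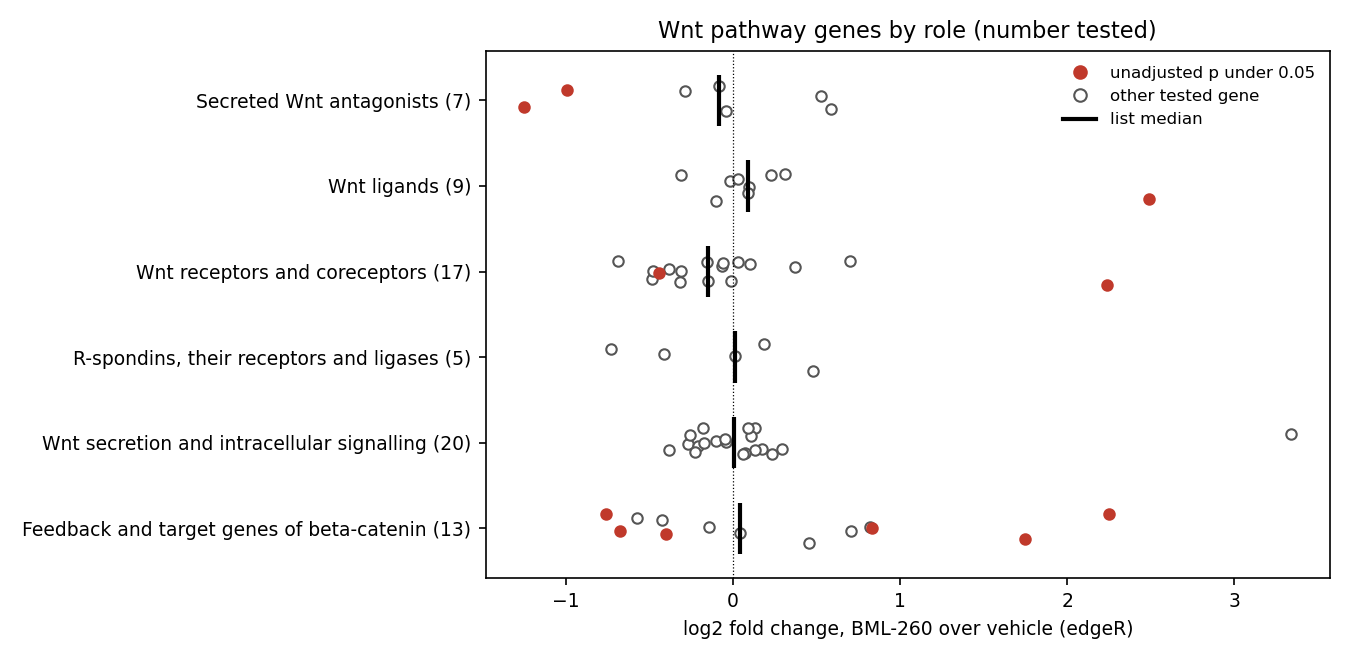
Log2 fold change of BML-260 over vehicle (x axis) for the tested genes of each Wnt pathway list (rows, number tested in brackets); points are genes, spread vertically for legibility, red where the unadjusted edgeR p is under 0.05, and black bars are list medians. The medians lie between -0.15 and 0.09, and none of the genes passed the adjusted test.

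The genes with the pattern most like a member were found by the root mean square distance between log2 profiles centred over the 4 libraries, among 13131 genes. For Sfrp5 they were Tagln at a distance of 0.0459, Fam13a at 0.0539 and P2rx1 at 0.0816. Fam13a, a gene linked to fat storage in adipocytes, stood at 302.2 and 328.7 CPM with vehicle, against 106.2 and 213.8 CPM with BML-260, and P2rx1, an ATP-gated channel gene, at 5.55, 5.19, 1.88 and 3.14 CPM. Only 64 genes lay within 0.2 of Sfrp5. For Sfrp2 the nearest were Ccdc84 (0.0229), Vps52 (0.0259) and B430212C06Rik (0.0298), and 4700 genes lay within 0.2. A profile of small amplitude, like that of Sfrp2, lies close to any gene that varies little. This number therefore does not mean that those genes share its order of libraries. With 4 libraries, such likeness is a description only.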

How the data were processed

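Illumina libraries were made from TRIzol-extracted RNA, per the labels' protocols. Tools named in the submitters' processing notes, with no role or order, are RSEM 1.2.31, HISAT2 2.1.0 and DESeq2 1.10.1, with the build GRCm38.p5. The sources used here do not state the annotation or the strand setting. Overlapping and antisense genes therefore have uncertain counts. The authors deposited expected counts without normalization, FPKM, log2 group means and their own log2 fold change, p-value and adjusted p-value. Counts were rounded, filtered with filterByExpr (minimum count 10) and tested with edgeR 4.0.16 quasi-likelihood (R 4.3.3, TMM factors, a model with group alone, two-sided, Benjamini-Hochberg over 15643 genes). There were 2 residual and 3.28 prior degrees of freedom; standard errors were computed from the fold change and F. CPM are TMM-scaled, and marker and likeness profiles use log2 CPM with a prior count of 2. FPKM served for levels between genes, for the members' sum, shares and ratio in each group, and for the check of Frzb. They were used as deposited, without TMM factors, and no test used them. Libraries of 1 group were not the same library deposited again (chi-square per gene 40.4 for vehicle and 45.6 for BML-260). Identifiers were placed on GENCODE M21 (GRCm38), and 51633 matched.

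Alternatives were DESeq2 1.42.0, limma-voom (limma 3.58.1), other scaling factors and filters, a threshold of 0.1, leaving out each library and the library letter as a block. The fits were tested on simulated data. Named were the members, the other antagonists, the 3 genes of each Wnt list with the smallest p, Ucp1, and the 3 genes most like the member of highest FPKM and the member of smallest p (mean log2 CPM of at least 1). Members and lists were chosen with earlier results of these data known. Marker lists without a value in the text are given in the closing section.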

Additional observations from a re-analysis of the deposited data

How the results depend on the processing

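The edgeR test called 1 gene, and also 1 with limma-voom, with an adjusted p of 0.1, with other scaling factors or with the stricter filter. DESeq2 called 405 and edgeR without a filter 651, and leaving out single libraries gave 0 (without vehicle A) to 309 genes (without vehicle B); the cause was not tested. With the library letter as a replicate block edgeR called 0 genes, with 1468 at an unadjusted p under 0.05. No label ties the letters to shared animals or days, and the deviations of vehicle A and BML-260 A from their group means correlated at -0.0593 across genes. The block changed no call of a member.

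Of 83 values of members under alternatives, 79 kept their direction and their side of the threshold. Sfrp5 passed without a filter (-0.998, edgeR adjusted p = 0.0411), while its adjusted p ranged to 0.869 over the other alternatives. Sfrp2 reversed to 0.18 without vehicle B and to 0.0069 without BML-260 A (range -0.26 to 0.18), and Dkk3 to 0.066 without BML-260 A (range -0.27 to 0.066). The range was -1.51 to -0.63 for Sfrp5. The median of the antagonists was -0.14 with upper quartile factors, -0.14 with library totals, -0.19 without a filter, and -0.26 to 0.0069 without single libraries. Without single libraries the list medians ran from -0.10 to 0.36 for ligands, -0.17 to 0.0086 for receptors, -0.23 to 0.26 for R-spondins and 0.061 to 0.33 for target genes. Without a filter the R-spondin median was 0.18 and that of target genes 0.24, or 0.25 with the stricter filter. The filter sets which genes of a list enter its median, so these medians cover other sets of genes. Wif1 entered that of the antagonists only without a filter. Shares from counts not divided by length were, for vehicle, 8.34% for Sfrp1, 46.7% for Sfrp2, 1.06% for Frzb, 6.80% for Dkk2 and 2.69% for Dkk3, and with BML-260 6.73%, 10.2% and 2.55% for Sfrp1, Dkk2 and Dkk3. Depth limited Frzb and Wif1.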

Other observations

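The other marker lists describe the tissue around the members. Schwann cell and nerve markers (5 of 5 tested) summed to 597.7 and 459.2 CPM with vehicle and to 177.7 and 304.2 CPM with BML-260, with 4 of the 5 lower without overlap. Macrophage markers summed to 1063, 1212, 1776 and 810.2 CPM in the order vehicle A, vehicle B, BML-260 A and BML-260 B, highest in BML-260 A. Endothelial markers summed to 598.0, 543.2, 391.2 and 498.4 CPM in that order, lowest in BML-260 A. Mural and smooth muscle markers summed to 520.3, 653.9, 765.2 and 1076 CPM, a sum that includes Des. Epidermal and duct markers (2 of 10 tested, with Krt1 and Krt15 at 0 reads) summed to at most 22.0 CPM, and tendon and cartilage markers (4 of 8 tested) to at most 13.8 CPM.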
